A study of Mus musculus with 4 samples.

Results

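Mediator is the multi-subunit coactivator that carries signals from enhancer-bound transcription factors to RNA polymerase II at promoters. Its head and middle modules, joined by the scaffold subunit MED14, form the core that contacts the polymerase, the tail module holds many of the surfaces bound by activators, and a separable kinase module of CDK8 or CDK19, cyclin C, MED12 and MED13 docks on the core and governs its contact with the polymerase. In embryonic stem cells Mediator is known for its high occupancy at the enhancers of pluripotency genes, where the histone acetyltransferase p300 is also found.

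Transcripts of the Mediator subunits were followed here by RNA sequencing in 4 libraries of mouse embryonic stem cells, 2 of wild-type cells (the E14 line, E14Tg2a.4, of strain 129/Ola) and 2 of the line MLC460, which was derived with CRISPR/Cas9 and carries monomeric enhanced green fluorescent protein (mEGFP) on the N-terminus of the p300 made from the endogenous gene. Both lines were kept in medium with 15% serum and leukemia inhibitory factor at 1000 U/ml, without a treatment. The subunits were the protein-coding genes named Med with a number, with or without a final letter, together with Cdk8, Cdk19 and Ccnc. This gave 33 of the 54838 genes in the tables, 7 in the head, 9 in the middle, 1 scaffold, 9 in the tail and 7 in the kinase module, and 32 of the 33 passed the low-count filter. Modules follow structural models of the mammalian complex. The knock-in group is 1 derived line, so a difference from wild-type cannot be told apart from one that arose during derivation, and in a bulk sample fewer expressing cells cannot be told apart from less RNA per cell.

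The libraries held 18946731 to 26553998 counts in genes, of which 0.157% to 0.163% fell on Mediator subunits (29945 to 43127 counts). Ep300, the tagged gene (GRCm38 chromosome 15, 81585351 to 81652077), had 209 and 210.05 TMM-scaled counts per 1000000 (CPM) in the wild-type libraries 1 and 2 and 181 and 210.4 in those of the knock-in line, and the log2 ratio of knock-in to wild-type was -0.10 (SE 0.15, adjusted p = 0.804, edgeR). These counts do not separate tagged from untagged transcripts. The embryonic stem cell markers summed to 5552 to 6313 CPM over 10 genes, each with at least 1 CPM in some library. With the GC offset 1 of them passed, Klf4 (0.48, adjusted p = 0.0424, edgeR), as did 1.52% of all genes. Without the offset Klf4 had 186 and 188 CPM in wild-type and 226 and 234 CPM in knock-in cells. It did not pass there (0.30, adjusted p = 0.466, edgeR). The fibroblast and feeder markers summed to 38.2 and 40.4 CPM in wild-type and 23.7 and 26.2 CPM in knock-in cells, with Col1a2, Col3a1, Dcn, Lum and Postn under 1 CPM in each library and Thy1 (-0.55, SE 0.19) and Pdgfrb (-0.88, SE 0.20) the most abundant. None of these passed. The primitive endoderm markers summed to 775 and 866 CPM in wild-type and 559 and 558 CPM in knock-in cells, with Foxa2 and Sox17 under 1 CPM. That sum came almost wholly from the matrix genes Sparc, Lama1, Col4a1 and Col4a2 (means of 366, 198, 84.1 and 32.6 CPM), while Gata4, Gata6, Sox7, Dab2 and Pdgfra had means of 1.20 to 2.71 CPM and log2 ratios of -0.43 to 0.22. Col4a1 (-0.87, adjusted p = 0.0020, edgeR) and Col4a2 (-0.997, adjusted p = 0.0026, edgeR) passed with the GC offset. Without it they did not pass, at -1.10 (adjusted p = 0.0554, edgeR) and -1.23 (adjusted p = 0.0604, edgeR). Neuroectoderm markers summed to 149 and 235 CPM in wild-type and 162 and 149 CPM in knock-in cells. Tubb3 and Nes were the most abundant, and Neurog2 and Zic1 were under 1 CPM. Mesoderm markers summed to 13.2 and 12.1 CPM in the parental line and 9.81 and 9.26 CPM with the tag. These sums did not overlap, and neither did the groups for 47.4% of all genes. The sums came mostly from Eomes (-0.49, SE 0.21) and then Kdr, with T, Mixl1, Mesp1 and Tbx6 under 1 CPM. The part of these cell types in the Mediator values was not tested. Wild-type 2 stood apart from the other libraries along transcript GC content and in its share of mitochondrial counts (0.589%, against 1.04% to 1.27%), so many values below are also given with a GC offset, a correction that removes from each library its smooth trend of log2 CPM on transcript GC content.

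With edgeR's quasi-likelihood fit, 0 of the 32 tested subunits had an adjusted p under 0.05 (Benjamini-Hochberg), while 10 of the 15191 genes in the fit did (0.0658%). The lowest adjusted p among the subunits was 0.424, and 1 subunit, Med21, had an unadjusted p under 0.05, as did 10.9% of all genes. DESeq2 called 0 subunits (0.548% of the 14970 genes it gave an adjusted p) and limma-voom 0 (0.0263% of 15191). Each had 1 subunit at an unadjusted p under 0.05. So did 5.04% of 27017 genes in DESeq2, where no low-count filter was set, and 11.6% of 15191 in limma-voom. The median log2 fold change of the subunits was 0.077, beside 0.00098 over all genes, and the values ran from -0.69 for Med12l to 0.57 for Cdk19. They were positive for 21 subunits and negative for 11, where 50.1% of all genes were positive. For 29 of the 32 subunits the 95% interval lay within a 2-fold change either way, as it did for 68.4% of all genes, and the other 3 were Cdk19, Ccnc and Med12l. Both knock-in libraries lay above both wild-type libraries for 7 subunits and below them for 5, so the groups did not overlap for 12 of 32, where 47.4% of all genes did not overlap (23.4% above and 23.9% below).

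**Figure D1:**
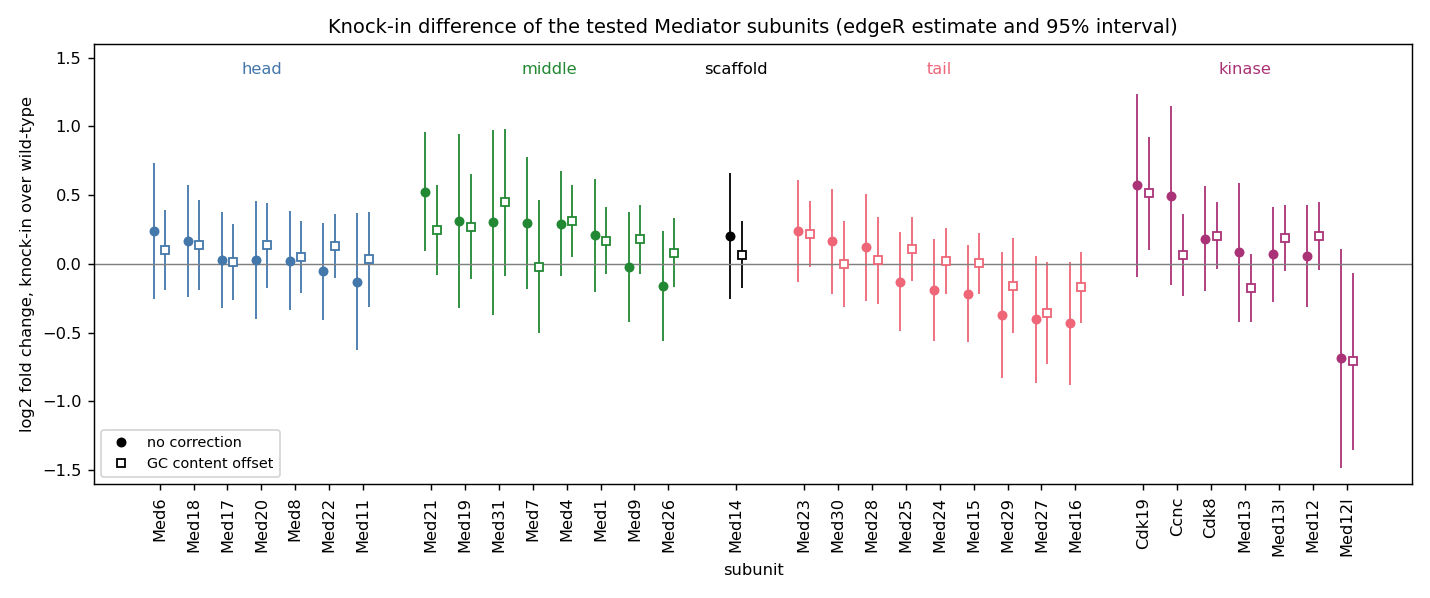
Log2 fold change of knock-in over wild-type (vertical axis) for each of the 32 tested subunits, grouped by module, with filled circles for the edgeR estimate, open squares for the estimate with a GC content offset, and bars for the 95% interval. Med21 is the single subunit whose uncorrected interval lies above 0, and the 6 tail subunits with negative estimates all lie higher with the offset.

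The head module contacts the polymerase and the general transcription factors around it. Levels are compared between genes as CPM per kilobase of annotated exon (RPKM, TMM-scaled). The highest head member by this length was Med17, the head's central subunit (chromosome 9, 15260351 to 15279931), at 22.1 and 25.1 RPKM in the wild-type libraries 1 and 2 and at 25.5 and 22.8 in those of the knock-in line. The libraries of the 2 lines interleave, and its log2 fold change was 0.030 (95% interval -0.32 to 0.38). The lowest was Med20, which pairs with MED18 in the head's movable jaw (chromosome 17, 47611582 to 47624418), at 3.11, 2.46, 2.92 and 2.76 RPKM in the same order. Its wild-type libraries bracket both knock-in libraries. Med18 itself (8.20, 9.50, 9.97 and 9.86 RPKM) was the 1 head member whose knock-in libraries both lay above the wild-type ones, by 0.16 on the log2 scale (SE 0.18, adjusted p = 0.733, edgeR). Med6, Med8, Med11 and Med22 had means of 17.1 to 20.2 RPKM. With the longest transcript as the length Med8 was higher than Med17 (30.2 against 25.5 RPKM). Of the 7 head members 5 had positive and 2 negative log2 fold changes, with a median of 0.026 and a range of -0.13 to 0.24. All 7 were positive with the GC offset, with a median of 0.10. In that fit 59.3% of all genes were positive and the median over all genes was 0.063.

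Some head subunits start next to another gene. For 5 of the 33 Mediator genes (15.2%) a protein-coding gene on the opposite strand started within 1000 bases upstream, or up to 200 bases downstream, of their own start, compared with 7.92% of all protein-coding genes in the tables. Among them were Med22 with the ribosomal protein gene Rpl7a (87 bases apart), Med20 with Bysl, a factor for small ribosomal subunit assembly (90 bases), Med29 with Paf1, a subunit of a polymerase elongation complex (243 bases), and Med19 with Gm28635 (361 bases), which had 0 counts. Rpl7a had 1723 to 2183 CPM and Med22 59.0 to 67.1 CPM, and Bysl had 115 to 160 CPM and Med20 18.0 to 22.8 CPM. Per length the means were 1107 RPKM for Rpl7a and 17.1 for Med22, and 35.1 for Bysl and 2.81 for Med20. They were 29.9 RPKM for Paf1 and 8.19 for Med29, or 23.4 for Med29 when reads are summed over the 2 strand columns described below. The log2 fold changes were 0.027 (SE 0.16) for Rpl7a and -0.055 (SE 0.16) for Med22, and -0.050 (SE 0.18) for Bysl and 0.026 (SE 0.19) for Med20. The windows of Med22 and Med20 are shown because each holds the starts of both genes of such a pair. They run from 250 bases before to 50 bases after the RefSeq start (GRCm38.p6), read 5′ to 3′ on the gene's strand, with capitals for GGGCGG, the GC box bound by Sp-family factors, on either strand.
Med22 chr2:26910593-26910892 (minus strand): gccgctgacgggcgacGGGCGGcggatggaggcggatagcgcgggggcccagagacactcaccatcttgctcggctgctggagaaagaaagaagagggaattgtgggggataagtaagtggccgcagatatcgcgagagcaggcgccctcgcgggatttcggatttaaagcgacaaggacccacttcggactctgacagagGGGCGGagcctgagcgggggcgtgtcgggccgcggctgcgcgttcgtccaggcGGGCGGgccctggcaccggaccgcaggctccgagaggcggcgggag
Med20 chr17:47611335-47611634 (plus strand): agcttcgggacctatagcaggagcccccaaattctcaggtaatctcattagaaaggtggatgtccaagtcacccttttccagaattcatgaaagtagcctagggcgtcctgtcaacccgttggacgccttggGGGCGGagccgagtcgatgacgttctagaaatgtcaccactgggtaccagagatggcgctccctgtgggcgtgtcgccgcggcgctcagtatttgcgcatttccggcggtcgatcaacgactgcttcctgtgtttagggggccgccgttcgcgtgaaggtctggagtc

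Of the 33 members, 28 had such windows, 32 in all, and Med8, Med23, Med24, Med30 and Cdk19 had none. GGGCGG stood in 20 of the 32 windows (62.5%) and in 35.7% of all 32851 windows, and CCGGAAG, the core of ETS factor sites, in 9 (28.1%, against 8.86%). The 8 genes with CCGGAAG were Med4, Med6, Med10, Med14, Med15, Med17, Med18 and Med19. A palindrome like that of NRF1 sites stood in 5 windows (15.6%, against 6.22%), AAGATGG in 4 (12.5%, against 6.34%), CACGTG in 4 (12.5%, against 7.15%), CCAAT in 12 (37.5%, against 37.4%) and TATAAA in 3 (9.38%, against 13.6%). Each motif was searched on both strands, and CACGTG and the NRF1-like palindrome read alike on both. The median number of CG dinucleotides was 20 per member window and 7 over all windows. These are counts of letters, without a measure of binding.

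The middle module extends along the core beside the head, and its subunit MED1 is a contact for nuclear receptors. It held the highest member of the complex by this length, Med9 (chromosome 11, 59948206 to 59962205), at 23.8 and 30.9 RPKM in wild-type and 27.1 and 26.7 RPKM in knock-in cells. With the longest transcript as the length Med9 had a mean of 27.1 RPKM, below Med24 (50.4 RPKM) and, in the middle module, Med4 (38.6 RPKM). The library ranges of Med9, Med24 and Med30 of the tail and Med17 of the head overlapped, so these 4 are not ordered beyond their spread. Med21, which pairs with MED7 along the middle module (chromosome 6, 146642547 to 146650732), had 16.7 and 13.6 CPM in wild-type and 23.2 and 20.4 CPM in knock-in cells. Both knock-in libraries were higher than both wild-type libraries, with a log2 fold change of 0.53 (SE 0.19, 95% interval 0.091 to 0.96) that did not pass over all genes (adjusted p = 0.424, edgeR). Med21 was at 0.25 with the GC offset (95% interval -0.083 to 0.57). Its transcript has 40.5% GC. Med4 and Med7 likewise had both knock-in libraries higher, by 0.29 (SE 0.17) and 0.30 (SE 0.21) on the log2 scale. With the GC offset Med4 was at 0.31 (SE 0.12, 95% interval 0.052 to 0.57, adjusted p = 0.197, edgeR). Med7 was at -0.019 with the offset, and at -0.36 with the offset and without wild-type 1. In the unstranded column Med7 was the lowest tested middle member, at 2.33 and 2.42 RPKM in the wild-type libraries and 3.05 and 2.78 RPKM in those with the tag. With the strand columns summed, as described below, its mean was 11.2 RPKM, above Med31 at 5.67 RPKM. Med4 had 48.5 and 43.7 CPM in wild-type and 61.5 and 51.4 CPM in knock-in cells.

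Med1 (chromosome 11, 98152154 to 98193293) had 96.1 and 70.8 CPM in wild-type and 90.8 and 102 CPM in knock-in cells, where wild-type 2 was the low library. The difference on the log2 scale was 0.21 (SE 0.18, adjusted p = 0.662, edgeR), and it was -0.0086 without wild-type 2. Med19 was likewise low in wild-type 2, with 34.6 and 17.4 CPM in wild-type and 33.7 and 30.9 CPM in knock-in cells. Med31, another conserved middle subunit, had 11.8 and 6.36 CPM in wild-type and 9.81 and 12.8 CPM in knock-in cells. Med26, which recruits elongation factors, was 1 of the 2 middle members with a negative value (-0.16, SE 0.18), beside Med9 (-0.021, SE 0.18). Over the 8 tested middle members the median log2 fold change was 0.29, with 6 positive, and it was 0.081 without wild-type 2 and 0.21 with the GC offset.

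Med10, a middle subunit of the conserved core (chromosome 13, 69802395 to 69816104), had 0 counts in the unstranded column of each of the 4 libraries and so could not be tested there. Its exons share 92.8% of their bases with exons of Gm26819, a long noncoding RNA gene on the opposite strand (69809914 to 69816094), and a read over exons of 2 genes enters neither gene in that column. The tables also count reads by strand, and these columns hold reads for Med10. The forward column gave 411 and 350 reads in wild-type and 374 and 258 in knock-in cells, and the reverse column 396 and 316 in wild-type and 422 and 286 in knock-in cells. Gm26819 had 0 to 2 unstranded counts, and its reverse column matched the forward column of Med10 within 2 reads in each library. Since the libraries do not mark strand, the reads of Med10 and Gm26819 cannot be told apart. Summed over both strand columns, the pair had 26.96 and 27.8 CPM in wild-type and 29.6 and 26.5 CPM with the tag. The difference was 0.036 on the log2 scale (SE 0.17, 95% interval -0.34 to 0.41, adjusted p = 0.953, edgeR in a fit of these sums, added after the data were seen).

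Other members also had fewer reads in the unstranded column than in the summed strand columns. The unstranded count lacked 78.6% of the summed strand reads for Med7, 67.9% for Med29, 57.2% for Med27, 42.0% for Med21, 38.0% for Med19, 23.6% for Med13, 21.7% for Ccnc and 17.1% for Med12l. Each has an exon overlap with a gene on the opposite strand, among them 2310031A07Rik for Med7 (21.2% of its exon bases), Gm44710 for Med29 (4.996%), Gm13402 for Med27 (4.38%), Tm7sf3 for Med21 (5.59%) and Zdhhc5 for Med19 (11.9%). The summed strands raise the level of Med29 from 8.19 to 23.4 RPKM, of Med7 from 2.64 to 11.2 and of Med27 from 3.37 to 7.24, and may include reads of the partner. With the sums all 33 subunits could be tested, and again 0 passed in edgeR (0.0824% of all genes did), with 1, here Med16, at an unadjusted p under 0.05 (10.9%). Med21 was at 0.39 with the sums, and its 95% interval (-0.037 to 0.82) held 0.

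**Figure D2:**
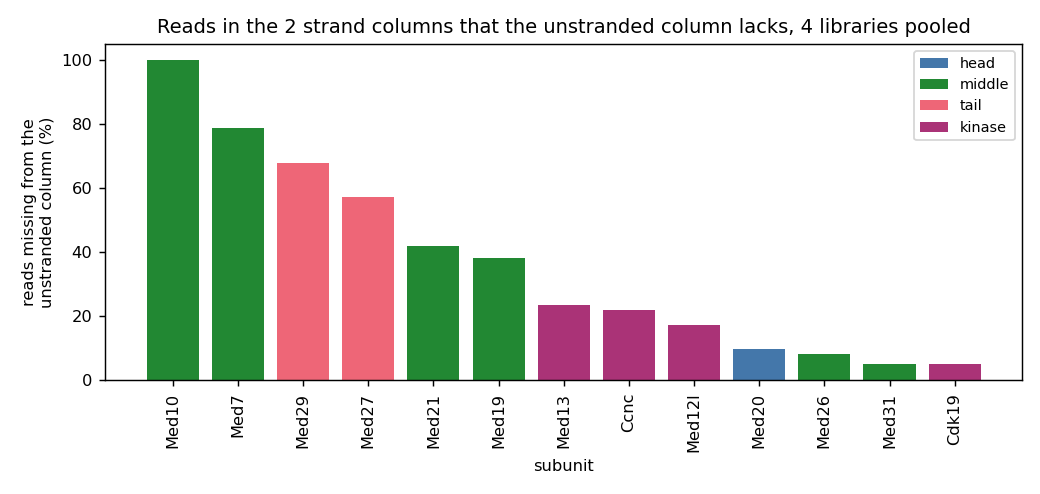
Share of the reads in the 2 strand columns that the unstranded column lacks (vertical axis, percent), pooled over the 4 libraries, for the Mediator subunits above 1%, with bars coloured by module. Med10 lacks 100% and Med7 78.6%.

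MED14 spans the core and joins head, middle and tail. Med14 (chromosome X, 12675369 to 12762073) had 5.53 and 3.78 RPKM in wild-type and 5.18 and 5.55 RPKM in knock-in cells. Wild-type 2 was the low library and the other 3 lay close together, so the log2 ratio of 0.20 (SE 0.20, adjusted p = 0.701, edgeR) became -0.057 without wild-type 2 and 0.068 with the GC offset. Per length it lay below the median of 9.18 RPKM over the 32 tested subunits. The median over all tested genes was 3.97 RPKM, and 67.3% of them lay under the subunits' median.

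**Figure D3:**
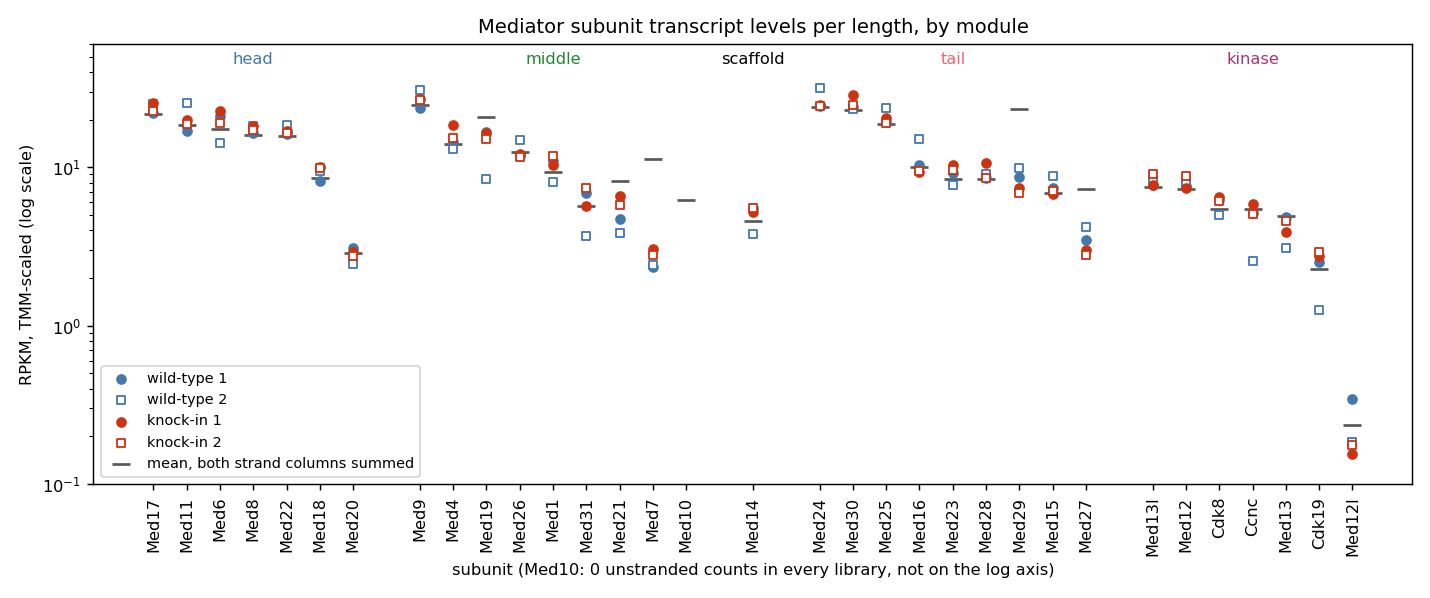
Level of each subunit in CPM per kilobase of exon (RPKM, log axis), grouped by module, with a marker for each library and a grey dash for the mean over both strand columns. Med12l lies lowest, Med9 and Med24 highest, and Med7, Med29 and Med10 differ most between the markers and the dash.

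The tail module binds activators such as nuclear receptors and developmental factors, through MED15, MED23, MED24 and MED25 among others. Its highest member was Med24 (chromosome 11, 98704591 to 98729435), at 24.5 and 31.5 RPKM in wild-type and 24.7 and 24.4 RPKM in knock-in cells, where wild-type 2 was the high library. The lowest in the unstranded column was Med27 (chromosome 2, 29346819 to 29524793), at 3.48 and 4.21 RPKM in the parental line and 3.002 and 2.80 RPKM in knock-in cells. Both knock-in libraries of Med27 lay lower, and the log2 ratio was -0.40 (SE 0.21, adjusted p = 0.480, edgeR). With the strand columns summed, Med27 had a mean of 7.24 RPKM, above Med15 at 6.90 RPKM. In those sums knock-in 1 of Med27 (22.9 CPM) lay above wild-type 1 (22.5 CPM) and the ratio was -0.23. In the unstranded column both knock-in libraries also lay lower for Med15, Med16 and Med29. Med16, which encodes a tail subunit associated with MED23 and MED24, had 48.3 and 70.1 CPM in wild-type and 43.2 and 44.4 CPM with the tag. The difference of -0.43 on the log2 scale (SE 0.20, adjusted p = 0.462, edgeR) was -0.17 with the GC offset and -0.15 without wild-type 2. Med29 had 11.04 and 12.7 CPM in wild-type and 9.44 and 8.83 CPM in knock-in cells (-0.37, SE 0.20). This column lacked 67.9% of the summed strand reads, which may include reads of an overlapping gene. With the strand columns summed the lines overlapped (28.3 and 36.2 against 31.3 and 23.9 CPM) and the value was -0.22. In the unstranded column it was -0.16 with the GC offset. Med23, a contact for the MAP kinase-driven factor ELK1, went the other way with 61.3 and 51.6 CPM in wild-type and 69.6 and 63.9 CPM in knock-in cells (0.24, SE 0.16, adjusted p = 0.575, edgeR), as did Med30 (0.17, SE 0.17), which was at -0.0026 with the GC offset and -0.19 with the offset and without wild-type 1.

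Of the 9 tail members 6 had negative and 3 positive log2 fold changes, with a median of -0.19. Without wild-type 2 that median was -0.010, without wild-type 1 it was -0.33, and with the GC offset it was 0.0038 with 5 positive. The median over all genes was 0.063 with that offset. No difference between the modules was tested. The tail held the most GC-rich transcripts, with a median of 55.5% GC, against 49.0% in the head, 47.7% in the middle and 47.0% in the kinase module. An older scheme that places Med19, Med27, Med28, Med29 and Med30 in the head left the tail median at -0.19 over 5 members and the head median at 0.028 over 12.

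Across the subunits the difference between the wild-type libraries went in part with GC content. All 6 subunits of at least 55% GC, namely Med15, Med16, Med24, Med25, Med26 and Med29, were higher in wild-type 2 than in wild-type 1. In the unstranded column 6 of the 7 under 45% GC were lower, the exception being Med7. With the strand columns summed Med7 was lower too, at 34.1 CPM in wild-type 1 and 22.0 CPM in wild-type 2. Between 45% and 55% GC the signs were mixed. Med31 (53.5% GC, log2 ratio -0.90) and Med20 (51.4% GC, -0.34) were lower in wild-type 2, while Med11 (53.0% GC, 0.59) was higher. Over the 32 subunits the log2 ratio of wild-type 2 to wild-type 1 followed GC content with Spearman rho = 0.71, and that of knock-in 2 to knock-in 1 with rho = 0.33. The log2 fold change of knock-in over wild-type followed it with rho = -0.71, and with rho = -0.029 after the GC offset. The offset is fitted on this same GC content, so a rho near 0 is built into it. It would also remove a difference between the lines that follows GC content. The 2 uncorrected relations share the wild-type libraries, and genes are not independent replicates, so no p is given. The 6 GC-rich subunits all had negative and the 7 GC-poor ones all positive log2 fold changes. With the offset, which takes out the trend on GC content, 2 of the 6 remained negative. The median absolute log2 ratio over the subunits was 0.31 for the wild-type pair and 0.12 for the knock-in pair.

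**Figure D4:**
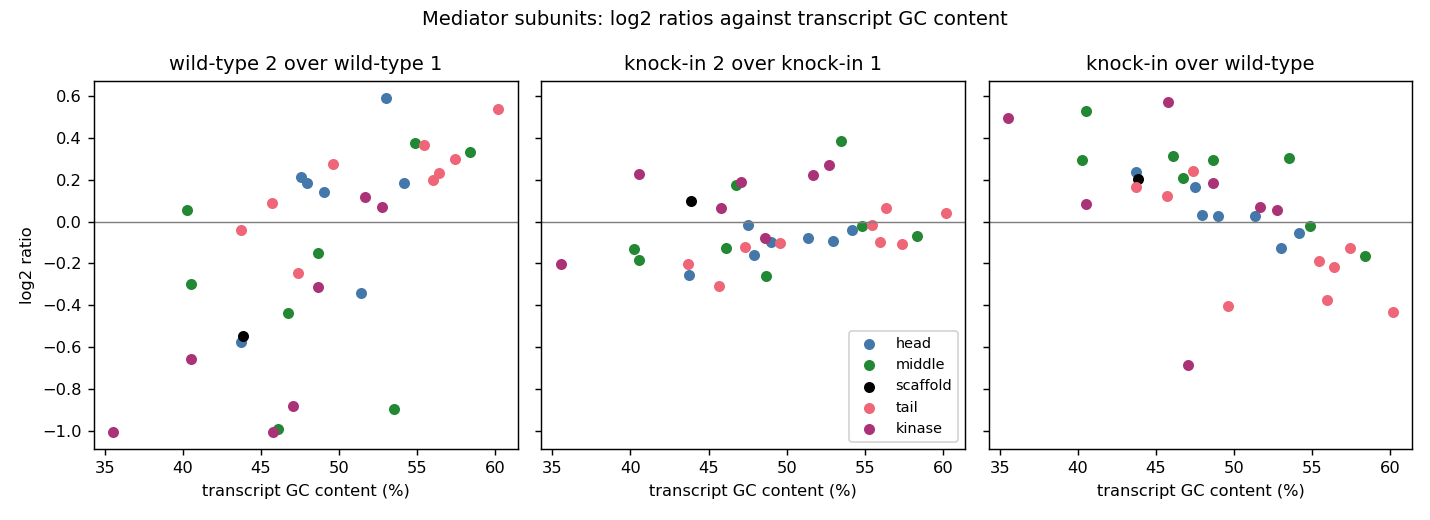
Log2 ratio (vertical axis) against transcript GC content (horizontal axis, percent) for the 32 tested subunits, coloured by module, of wild-type 2 to 1 (left), of knock-in 2 to 1 (centre) and of the lines (right, edgeR estimate). The left panel rises with GC content (rho = 0.71) and the right panel falls (rho = -0.71).

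The kinase module represses or assists the core depending on the gene, and mammals carry a paralog pair for each of its proteins but cyclin C. Per kilobase of annotated exon its highest member was Med13l (chromosome 5, 118560679 to 118765438), at 7.67 and 8.33 RPKM in wild-type and 7.74 and 9.04 RPKM in knock-in cells. With the longest transcript as the length Cdk8 was higher (19.7 RPKM, against 13.6 for Med13l). Med13, the paralog of Med13l (chromosome 11, 86267033 to 86357602), had 4.88 and 3.09 RPKM in wild-type and 3.90 and 4.56 RPKM in knock-in cells. Med13l was therefore above Med13 in each library. It made up 61.1% and 73.0% of the pair's reads per kilobase in wild-type and 66.5% and 66.5% in knock-in cells. The knock-in share differed by -0.55 percentage points from wild-type (67.1% ± 8.36 and 66.5% ± 0.026, SD, n = 2 each, two-sided exact permutation p = 1.0), and by 5.36 points without wild-type 2 and -6.45 points without wild-type 1. With the longest transcript as the length the shares ran from 71.8% to 81.3%, and with the strand columns summed from 54.5% to 67.2%. The differences on the log2 scale were 0.084 for Med13 (SE 0.22) and 0.069 for Med13l (SE 0.15).

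Med12, whose protein activates the kinase (chromosome X, 101274030 to 101297465), had 7.61 and 7.98 RPKM in wild-type and 7.35 and 8.86 RPKM in knock-in cells. Its paralog Med12l (chromosome 3, 59005825 to 59318682) was the lowest tested member of the complex, at 0.34 and 0.18 RPKM in wild-type and 0.15 and 0.18 RPKM in knock-in cells. Wild-type 1 was the high library for Med12l, with 120 counts against 52, 48 and 42 in wild-type 2, knock-in 1 and knock-in 2. On the log2 scale the difference with the GC offset was -0.71 (95% interval -1.35 to -0.063, adjusted p = 0.231, edgeR). Uncorrected it was -0.69 (SE 0.35, 95% interval -1.48 to 0.11, adjusted p = 0.485, edgeR). Without wild-type 2 it was -1.07 and passed (adjusted p = 0.0265, edgeR), a fit in which wild-type 1 is the lone wild-type library. Without wild-type 1 it was -0.17 (adjusted p = 0.787, edgeR), and -0.32 with the offset as well. Med12l made up 4.29% and 2.27% of its pair's reads per kilobase in wild-type and 2.06% and 1.95% in knock-in cells, a difference of -1.28 percentage points (two-sided exact permutation p = 0.333, the smallest that 2 against 2 libraries can give, and 0.50 after Benjamini-Hochberg adjustment over the 3 pairs). That difference was -0.26 points without wild-type 1 and -2.29 without wild-type 2. The windows of these pairs are shown because the members of each pair differ in level, and capitals again mark GGGCGG. None of the printed windows holds CCGGAAG. Of the 4, that of Med13 held GGGCGG 7 times, that of Med13l 4 times, and those of Med12 and Med12l once each, and their CG dinucleotides numbered 43, 61, 27 and 30.
Med12 chrX:101273841-101274140 (plus strand): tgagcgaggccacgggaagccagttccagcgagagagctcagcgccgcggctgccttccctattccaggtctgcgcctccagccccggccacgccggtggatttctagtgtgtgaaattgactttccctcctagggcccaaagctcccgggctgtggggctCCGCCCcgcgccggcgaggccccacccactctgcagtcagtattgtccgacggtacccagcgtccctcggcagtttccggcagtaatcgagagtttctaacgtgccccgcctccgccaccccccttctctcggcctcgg
Med12l chr3:59006728-59007027 (plus strand): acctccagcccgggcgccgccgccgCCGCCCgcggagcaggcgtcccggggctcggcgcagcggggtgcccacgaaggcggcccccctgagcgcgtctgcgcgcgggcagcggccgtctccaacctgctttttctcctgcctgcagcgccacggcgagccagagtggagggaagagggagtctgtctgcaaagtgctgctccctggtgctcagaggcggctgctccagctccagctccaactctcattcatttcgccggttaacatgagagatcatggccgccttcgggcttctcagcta
Med13 chr11:86357547-86357846 (minus strand): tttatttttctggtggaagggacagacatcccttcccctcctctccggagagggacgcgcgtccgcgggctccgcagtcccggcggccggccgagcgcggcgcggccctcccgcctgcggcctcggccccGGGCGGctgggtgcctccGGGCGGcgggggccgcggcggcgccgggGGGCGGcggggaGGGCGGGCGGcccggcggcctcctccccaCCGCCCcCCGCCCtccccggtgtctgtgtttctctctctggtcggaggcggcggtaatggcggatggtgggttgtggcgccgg
Med13l chr5:118560469-118560768 (plus strand): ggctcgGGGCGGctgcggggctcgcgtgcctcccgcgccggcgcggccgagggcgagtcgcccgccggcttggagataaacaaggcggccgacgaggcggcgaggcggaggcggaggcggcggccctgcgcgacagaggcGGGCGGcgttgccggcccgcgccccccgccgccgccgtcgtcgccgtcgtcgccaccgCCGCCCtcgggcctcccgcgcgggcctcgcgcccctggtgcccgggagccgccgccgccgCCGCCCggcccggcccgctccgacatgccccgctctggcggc

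Cdk8 and Cdk19 encode the alternative kinases. Cdk8 (chromosome 5, 146231230 to 146302874) had 60.6 and 48.8 CPM in wild-type and 63.9 and 60.5 CPM in knock-in cells, or 4.96 to 6.50 RPKM. Cdk19 (chromosome 10, 40339564 to 40483818) had 14.8 and 7.36 CPM in wild-type and 16.2 and 16.9 CPM in knock-in cells, or 1.26 to 2.89 RPKM, and lay below Cdk8 in each library. Both knock-in libraries of Cdk19 were higher than both wild-type libraries, by 0.57 on the log2 scale (SE 0.30, 95% interval -0.093 to 1.24, adjusted p = 0.485, edgeR). It was 0.15 without wild-type 2, where Cdk19 had less than in the other 3 libraries. With the GC offset it was 0.52 (95% interval 0.10 to 0.93, adjusted p = 0.179, edgeR, the lowest adjusted p among the subunits in that fit). Cdk19 made up 29.1% and 20.2% of the pair's reads per kilobase in wild-type and 29.9% and 32.0% in knock-in cells, a difference of 6.27 percentage points (two-sided exact permutation p = 0.333, or 0.50 adjusted) that was 1.84 points without wild-type 2 and 10.7 without wild-type 1. With the longest transcript as the length the shares ran from 7.16% to 12.5%, since the exon union of Cdk8 is far longer than its longest coding transcript (9832 against 2973 bases).

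**Figure D5:**
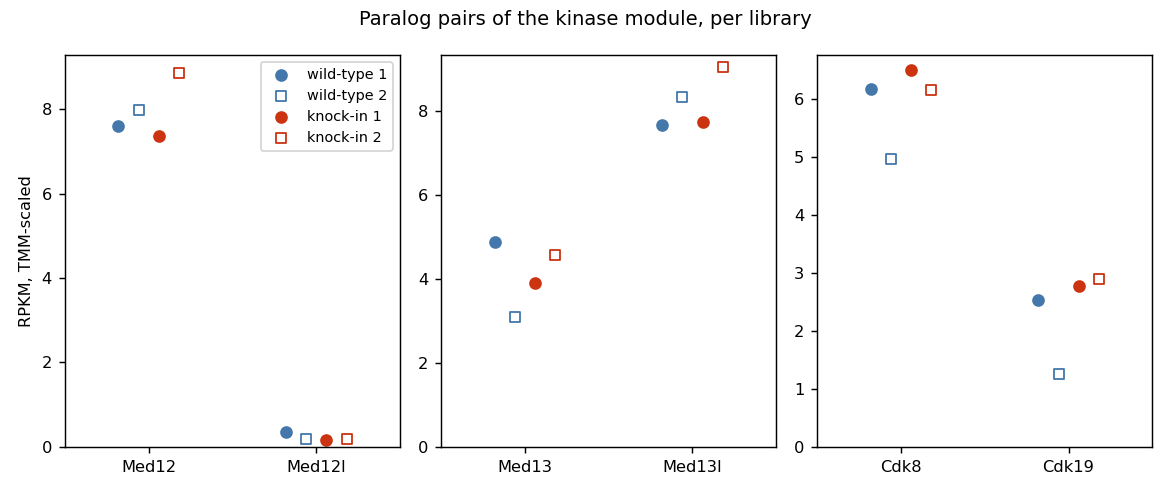
Level in CPM per kilobase of exon (RPKM, vertical axis from 0, a separate scale in each panel) of the 3 paralog pairs of the kinase module in each library, with blue for wild-type, red for knock-in, filled circles for library 1 and open squares for library 2. Med12 exceeds Med12l, Med13l exceeds Med13 and Cdk8 exceeds Cdk19 in each of the 4 libraries.

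Ccnc, the cyclin that partners either kinase, had 26.4 and 13.2 CPM in wild-type and 29.97 and 26.1 CPM in knock-in cells. Wild-type 2 was again the low library, and the log2 fold change was 0.50 (SE 0.29, adjusted p = 0.516, edgeR), 0.073 without wild-type 2 and 0.068 with the GC offset, with 35.5% GC in its transcript, the lowest among the subunits. Over the kinase module 6 of 7 log2 fold changes were positive, with a median of 0.084. That median was 0.19 with the GC offset (5 of 7 positive), 0.35 without wild-type 1 and -0.027 without knock-in 2. By median level the modules stood at 17.5 RPKM for the head, 11.4 for the middle, 9.20 for the tail and 4.68 for the kinase module. The kinase module was the lowest of the 4 in each library (3.09 to 5.86 RPKM) and with the longest transcript as the length (6.86 RPKM, against 23.5, 13.4 and 16.1). The order within modules moved with the length used, and 6 subunits changed by more than 5 ranks, Med21 from 24 to 11 and Med15 from 21 to 8 among them.

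Calls changed with the wild-type library left out. Without wild-type 1, where wild-type 2 is the lone wild-type library, 20 of the 32 subunits passed, 12 higher and 8 lower, while 32.1% of all genes passed (19% higher and 13.1% lower). Med12, Med12l and Med13l of the kinase module and Med7, Med8, Med9, Med17, Med18, Med20, Med22, Med28 and Med30 were the 12 that did not. The largest were Cdk19 (1.17), Ccnc (1.09), Med19 (0.90), Med31 (0.82), Med21 (0.69) and Med16 (-0.68). Without wild-type 2 only Med12l passed, while 4.39% of all genes did. With the GC offset and all libraries 0 subunits passed, while 1.52% of all genes did, and with the offset and without wild-type 1 Cdk19 (0.93), Med19 (0.68), Med31 (1.03) and Med27 (-0.53) passed, while 9.15% of all genes did. In such a fit the spread comes from the knock-in pair alone. In the other edgeR fits 0 subunits passed. The share of all genes that passed was 0.0856% with DESeq2 size factors, 1.31% without the low-count filter, 0.0882% with a stricter filter, 0.107% and 0.099% without knock-in 1 and 2, 1.7% with a GC and length offset and 3.93% with the GC offset without wild-type 2. It was 1.3% with the replicate number as a block, 3.35% with the numbers crossed and 3.15% with the GC offset and the block.

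The machinery that Mediator works with was described from lists of its parts. None of the 12 RNA polymerase II subunits passed (median log2 fold change 0.0034). Nor did any of 30 tested general transcription factors, which open the promoter with the polymerase (0.20), or 24 tested genes of pause release and elongation (0.020). Cohesin meets Mediator at enhancer and promoter loops. Its list of 11 genes held cohesin and its loader together with Wapl, Pds5a, Pds5b and Ctcf, and none passed (0.43). All 4 lists also had 0 calls with the GC offset, where the medians were 0.074, 0.19, 0.16 and 0.24, beside 0.063 over all genes. Of all genes 0.0658% passed without the offset and 1.52% with it, so 0 calls in lists this short say little. Polr2a, the largest polymerase subunit, had 770 and 828 CPM in wild-type and 714 and 785 CPM in knock-in cells (-0.092, SE 0.14). The most abundant cohesin genes were Rad21 (0.45, SE 0.17, adjusted p = 0.431, edgeR) and Smc3 (0.46, SE 0.23), with Smc3 at 289 and 170 CPM in wild-type and 324 and 307 CPM in knock-in cells. Without wild-type 2 the 4 medians were 0.14, 0.10, 0.057 and 0.12. Taf1 and Taf7 had values of 0.22 (SE 0.18) and 0.29 (SE 0.17), Aff4 and Supt5 of 0.25 (SE 0.17) and -0.053 (SE 0.16), and Polr2e of -0.25 (SE 0.19).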

How the data were processed

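The deposited tables hold raw read counts per gene in 4 libraries, in an unstranded column and 2 strand columns. Per the submitters' processing notes, reads were processed with Trim Galore and STAR 2.5.3a on GRCm38 (mm10), and the annotation release is not given in the sources used here. Libraries were made from 1 ug of total RNA, per the labels' protocols. The strand columns split evenly (50.2% to 50.5% reverse), so the unstranded counts were used, and reads from overlapping or antisense genes cannot be told apart. Summary rows (15.8% to 18.0% of reads, 5.96% to 6.38% being ambiguous between genes) were kept out. Of 54838 gene identifiers, 54809 matched GENCODE M21, the source of symbols, coordinates, exon lengths and GC content (of the longest coding transcript).

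All genes were fitted in edgeR 4.0.16 (R 4.3.3) with genotype alone, TMM scaling, filterByExpr (minimum count 10) and quasi-likelihood F tests, and p-values of 15191 genes were adjusted by Benjamini-Hochberg at 0.05. The SE is the absolute log2 fold change over the square root of F. RPKM divides TMM-scaled CPM by the union of exons. Paralog shares were compared by exact permutation over samples. Alternatives were DESeq2 size factors and DESeq2 1.42.0, limma-voom (limma 3.58.1), other filters, each library left out, the replicate number as a block, and offsets from a spline (5 degrees of freedom) on GC content or on GC content and length. The sum of the strand columns and a crossed pairing were added after the data were seen. The procedure was tested on simulated counts.

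The members and lists were chosen with earlier results of these data known. Any member could be named. Every library's value is given for Med14, the highest and lowest member per length of each module (for the middle also the lowest tested), the paralog pairs, and the 3 largest fold changes. In the other lists the genes past the threshold, with or without the GC offset, were named, or else the 2 most abundant. The labels call the samples biological replicates without saying how cultures were separated, so p-values measure the spread between these samples. With 2 libraries per group each value rests on few samples. Sequences are from RefSeq (GRCm38.p6). The neighbour of 1 member is not reported here.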

Additional observations from a re-analysis of the deposited data

How the results depend on the processing

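The count of 0 subunits past the threshold held with DESeq2 size factors, without the low-count filter, with a stricter filter (1 CPM in each library), with the replicate block, with either offset, with DESeq2, limma-voom and the summed strand columns, and without either knock-in library. It was 4 with the GC offset without wild-type 1, and 0 to 20 over the fits without 1 library. The count over all genes was 10, and it was 354 without the low-count filter, 231 with the GC offset, 479 with the GC offset and the replicate block, 1429 and 636 with the GC offset without wild-type 1 and 2, 259 with the GC and length offset, 82 with DESeq2, 4 with limma-voom, and 16 to 5015 without 1 library. Leaving out wild-type 1, wild-type 2, knock-in 1 and knock-in 2 gave 5015, 711, 17 and 16. The cause of these differences was not tested.

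The labels do not say that a replicate number marks a shared culture or day. Deviations of same-numbered libraries from their group means correlated at -0.12 over 13143 genes, a single correlation whose crossed value is its mirror. With the replicate number as a block 197 genes and 0 subunits passed, and with the numbers crossed 509 genes and 0 subunits.

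The tail median moved to 0.0038 with the GC offset, 0.0039 with the block added, 0.025 with length added and 0.13 with the offset without wild-type 2, and ran from -0.33 to -0.010 without 1 library. The kinase median ran from -0.027 to 0.35. The head median was 0.20 with the offset without wild-type 2, and the middle median ran from 0.081 to 0.41 without 1 library. The median over all genes was 0.063 with the GC offset and 0.098 with the offset without wild-type 2.

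In the fits with an offset the median over all genes lay above 0, at 0.048 to 0.098. Some log2 fold changes changed sign. With the GC offset they were 0.035 for Med11, 0.13 for Med22, -0.019 for Med7, 0.18 for Med9, 0.081 for Med26, 0.0038 for Med15, 0.021 for Med24, 0.11 for Med25, -0.0026 for Med30 and -0.18 for Med13. With the block added they were 0.054 for Med11, 0.13 for Med22, -0.0010 for Med7, 0.18 for Med9, 0.081 for Med26, 0.0039 for Med15, 0.024 for Med24, 0.11 for Med25 and -0.18 for Med13. With GC content and length they were 0.0066 for Med11, 0.13 for Med22, -0.030 for Med7, 0.17 for Med9, 0.078 for Med26, 0.046 for Med15, 0.035 for Med24, 0.13 for Med25, -0.039 for Med30 and -0.15 for Med13. With the GC offset without wild-type 1 they were -0.071 for Med8, -0.15 for Med17, -0.058 for Med18, 0.095 for Med22, -0.36 for Med7, 0.069 for Med9, 0.036 for Med26, 0.069 for Med25, -0.16 for Med28, -0.19 for Med30 and -0.16 for Med13. With the GC offset without wild-type 2 they were 0.33 for Med11, -0.0048 for Med20, 0.17 for Med22, 0.31 for Med9, -0.013 for Med19, 0.14 for Med26, 0.033 for Med15, 0.13 for Med24, 0.16 for Med25 and -0.18 for Med13. With the stricter filter they were -0.0075 for Med8, -0.0012 for Med17 and -0.0055 for Med20. Without 1 library they ran from -0.032 to 0.56 for Med6, -0.046 to 0.082 for Med8, -0.39 to 0.18 for Med11, -0.073 to 0.11 for Med17, -0.15 to 0.21 for Med20, -0.14 to 0.027 for Med22, -0.0086 to 0.45 for Med1, -0.19 to 0.16 for Med9, -0.11 to 0.90 for Med19, -0.090 to 0.82 for Med31, -0.057 to 0.51 for Med14, -0.27 to 0.015 for Med25, -0.062 to 0.27 for Med28, -0.080 to 0.16 for Med12, -0.22 to 0.45 for Med13 and -0.043 to 0.16 for Med13l.

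Among the 10 highest subunits per length, 9 stayed with the longest transcript as the length, 9 without wild-type 2 and 8 with the summed strand columns. Depth limits Med12l most, with 42 to 120 counts a library.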
